A study of Mus musculus with 10 samples.

Results

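The kinesin motor family was taken as every gene whose symbol begins with Kif followed by a digit and to which the deposited Entrez number of a probe set led, which gave 37 of the 20405 genes measured. Where several probe sets named a gene, the brightest one on average over all 10 arrays was used. Of the 37, 36 code for protein and 1, Kif4-ps, is a pseudogene. Kinesin genes with other symbols, such as Cenpe, Kifc1, Kifc2 and Kifc3, fall outside the rule. The rule set 11 mitotic members (Kif2c, Kif4, Kif11, Kif14, Kif15, Kif18a, Kif18b, Kif20a, Kif20b, Kif22 and Kif23) against 9 transport members (Kif1a, Kif1b, Kif3a, Kif3b, Kif3c, Kif5a, Kif5b, Kif5c and Kif21a), and the other 17 belong to neither group. RNA came from mouse cortices at E10.5, dissected as the pair of each embryo, with 5 arrays from wild-type C57BL/6 embryos and 5 from embryos of that background heterozygous for the Mos2 allele of Magoh. Magoh protein sits in the core of the exon junction complex, which marks mRNA where exons were joined. Arrays of 1 genotype are labelled as biological replicates, but the labels do not say whether embryos were pooled, and give no litter or hybridisation day, so no batch could be examined. The comparison asks which transcripts differ in cortex with 1 mutant copy of Magoh.

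Kinesins are motor proteins that use ATP to move along microtubules or to take microtubules apart at their ends. Mitotic kinesins are made mainly in dividing cells, where they build the spindle, align and part chromosomes and organise the midbody during cytokinesis. Transport kinesins carry vesicles, mitochondria and RNA, mostly towards the plus ends of microtubules, and several of them are most abundant in neurons, whose axons depend on them. At E10.5 the mouse cortex is mostly a sheet of dividing progenitors in which the first neurons appear.

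The promoters of the mitotic and transport members differ in letters that the rule did not use, and the stretches shown here are those of the 6 members with an unadjusted p under 0.05, of Kif20b, and of Kif15 and Kif22 as mitotic members whose match lies just before the start site. Each runs 5′ to 3′ over the 120 bases before the start site in the RefSeq annotation of GRCm38.p6, and capitals mark TTTGAA or TTCGAA, the core of the cell cycle homology region that many genes of mitosis carry, and CCAAT, on either strand.
Kif11, spindle motor, chr19:37376262-37376381, plus strand: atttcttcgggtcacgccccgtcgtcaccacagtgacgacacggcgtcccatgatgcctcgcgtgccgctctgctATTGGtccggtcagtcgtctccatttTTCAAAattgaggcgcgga
Kif15, spindle motor, chr9:122950961-122951080, plus strand: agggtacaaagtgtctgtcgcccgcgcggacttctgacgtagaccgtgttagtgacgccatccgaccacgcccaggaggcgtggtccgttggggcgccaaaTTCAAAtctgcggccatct
Kif22, chromosome motor, chr7:127042421-127042540, minus strand: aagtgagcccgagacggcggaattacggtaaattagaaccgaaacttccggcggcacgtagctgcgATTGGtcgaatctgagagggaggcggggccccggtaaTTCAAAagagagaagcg
Kif18b, microtubule end motor, chr11:102925125-102925244, minus strand: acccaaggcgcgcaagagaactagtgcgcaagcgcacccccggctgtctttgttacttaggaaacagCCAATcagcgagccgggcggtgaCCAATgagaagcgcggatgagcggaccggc
Kif20b, motor of cytokinesis, chr19:34922238-34922357, plus strand: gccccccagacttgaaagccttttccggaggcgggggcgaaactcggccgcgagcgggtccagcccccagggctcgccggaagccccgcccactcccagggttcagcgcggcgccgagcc
Kif1a, transport motor, start site with a match, chr1:93082481-93082600, minus strand: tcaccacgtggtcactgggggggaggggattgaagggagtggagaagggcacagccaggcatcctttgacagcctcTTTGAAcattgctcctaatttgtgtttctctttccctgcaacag
Kif1a, transport motor, other start site, chr1:93101875-93101994, minus strand: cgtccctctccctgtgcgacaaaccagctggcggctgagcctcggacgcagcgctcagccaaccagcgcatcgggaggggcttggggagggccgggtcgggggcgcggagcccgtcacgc
Kif1b, transport motor, upstream start site, chr4:149307734-149307853, minus strand: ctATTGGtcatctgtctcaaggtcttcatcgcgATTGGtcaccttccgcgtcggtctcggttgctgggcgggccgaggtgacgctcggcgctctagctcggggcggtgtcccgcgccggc
Kif5c, transport motor, chr2:49619166-49619285, plus strand: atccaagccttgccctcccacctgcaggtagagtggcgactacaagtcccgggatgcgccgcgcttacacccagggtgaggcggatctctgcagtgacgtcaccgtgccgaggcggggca
Kif21a, transport motor, chr15:91049952-91050071, minus strand: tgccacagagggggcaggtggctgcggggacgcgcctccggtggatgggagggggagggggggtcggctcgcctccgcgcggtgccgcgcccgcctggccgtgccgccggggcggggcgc

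In Kif11, Kif15 and Kif22 the last match to TTTGAA, read on the opposite strand as TTCAAA, begins at positions -19, -19 and -17 from the start site, and in Kif11 and Kif22 a CCAAT match precedes it. In Kif18b both CCAAT matches lie before the start site and TTTGAA begins at base 4 after it, just outside the stretch shown. Kif20b holds no match in the stretch shown and TTTGAA at bases 8 and 14 after the start site. Of the transport motors, Kif1a holds TTTGAA at position -44 from 1 of its 2 start sites and no match at the other. Kif1b holds 2 CCAAT matches, which begin at positions -118 and -87 from the start site shown and also lie within the window of its overlapping second start site. Kif5c and Kif21a hold none of the 3 motifs between 250 bases before and 50 bases after the start site. Over that window, 9 of 10 mitotic members with a promoter sequence held TTTGAA or TTCGAA, against 1 of 7 transport members (1 of the 2 start sites of Kif1a) and 3 of 14 of the other members. A gene was counted if any of its start sites held a match. By the same count 21.7% of all 27025 genes with a promoter held TTTGAA or TTCGAA and 41.1% held CCAAT, and of all 32851 promoters of the same length 19.2% and 37.4% did, with matches counted on both strands and overlaps allowed. CCAAT was found in 6 of 10 mitotic and 3 of 7 transport members. These are matches of letters and were not tested as binding sites. Kif5a, Kif5b, Kif13b, Kif19a, Kif20a and Kif4-ps had no entry.

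Levels are on the log2 scale with the SD over n = 5 arrays, and every difference is the mutant mean less the wild-type mean. Magoh itself was at 11.05 ± 0.09 in wild type and 10.21 ± 0.18 in mutants, a difference of -0.84 (SE 0.08, limma adjusted p = 8.48e-05), in the direction of the labels. Of 17 cortical progenitor markers, 12 lay above 8.57, the 95th percentile of negative controls averaged over arrays, on all arrays. Levels below 8.57 can include background, and the median over all genes lay between 7.15 and 7.23 on the 10 arrays. Of the kinesins, 9 of 11 mitotic, 5 of 9 transport and 1 of 17 other members lay above 8.57 in both genotypes. Mean levels ran from 5.72 for Kif9 to 10.46 for Kif2c, but levels of different probe sets depend on their probes and are not set against each other here. Mutant array 1 stood apart from the others. The SD over all genes of its distance from the wild-type mean was 0.25, against 0.15 to 0.19 on the other mutant arrays, and its 95th percentile of negative controls was 8.86, against 8.37 to 8.73 on the other arrays. Results are therefore also given without it.

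No kinesin gene passed the test between genotypes. Of the 37 members, none passed in either direction in limma at an adjusted p under 0.05 (0 rose, 0 fell), where 0.573% of all genes passed, 0.26% higher and 0.314% lower, and the smallest adjusted p of a member was 0.243. An unadjusted p under 0.05 was found for 6 members, which is 16.2% of them beside 9.25% of all genes. Of these, 1 was higher and 5 were lower in mutants, where 4.57% of all genes were higher and 4.68% lower. The 5 lower ones were the transport motors Kif21a, Kif5c, Kif1a and Kif1b and the spindle motor Kif11, and the higher one was Kif18b. With all arrays the difference was negative in 26 of 37 members, with a median of -0.05, where 49.0% of all genes were negative and their median was 0.00. This balance depended on mutant array 1. Without that array 17 members were negative and 20 positive (median 0.0017), and with limma's array weights 19 and 18 (median -0.0022). The 95% intervals of the members with all arrays reached from -0.67 to 0.40 in all. Their median width to either side was 0.17, so differences of that size could not be told from 0 for most members. Without mutant array 1, 0 members passed beside 0.907% of all genes, and 8 had an unadjusted p under 0.05, or 21.6% beside 11.5% of all genes. With limma's array weights 1 member passed, Kif1a, beside 2% of all genes. In a fit without both mutant arrays 1 and 5, added after seeing the data, 2 passed, Kif1a and Kif20b, beside 2.46% of all genes. Those arrays held the lowest mutant values of Kif20b and the highest of Kif1a, so that fit is no independent support for either call.

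**Figure D1:**
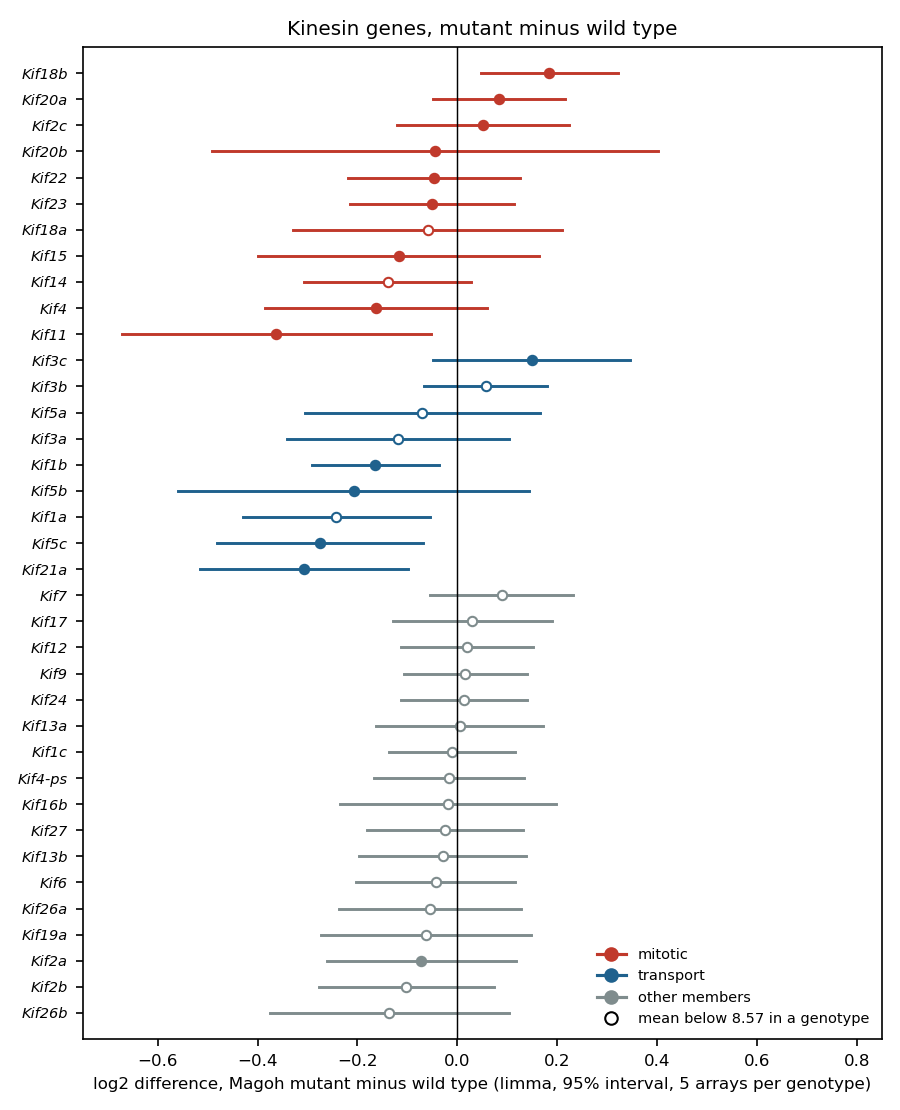
Log2 difference (mutant minus wild type, horizontal axis) of each of the 37 kinesin genes with its 95% interval from limma, for mitotic (red), transport (blue) and other members (grey). Open points mark genes with a mean below the negative controls' 95th percentile of 8.57 in a genotype, and the intervals of Kif18b on the right and of Kif11, Kif1b, Kif1a, Kif5c and Kif21a on the left leave out 0.

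Among transport kinesins, 4 of the 9 members had an unadjusted p under 0.05, all with lower levels in mutants, and none passed the adjusted test. Of all genes, 9.25% had an unadjusted p under 0.05, and 4.68% had it with lower levels in mutants. Kif21a, a motor of the kinesin-4 family that also restrains microtubule growth, was at 8.93, 9.10, 9.05, 8.82 and 8.87 on wild-type arrays 1 to 5 and at 8.30, 8.77, 8.68, 8.90 and 8.60 on mutant arrays 1 to 5. Of the mutant arrays, 4 lay below every wild-type array, and array 4 lay within the wild-type range. The difference was -0.31 (SE 0.10, limma adjusted p = 0.243), or 0.808 of the wild-type level.

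Kif5c, the heavy chain of conventional kinesin that is most abundant in neurons, was at 8.81, 8.82, 9.01, 8.96 and 8.80 in wild type and at 8.20, 8.75, 8.63, 8.77 and 8.68 in mutants. All 5 mutant arrays lay below all wild-type arrays. Only Kif5c and Kif18b showed such a gap among the members, 5.41% of them beside 2.82% of all genes. The difference of Kif5c was -0.27 (SE 0.10, limma adjusted p = 0.325) and -0.17 without mutant array 1.

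Kif1a, which moves precursors of synaptic vesicles along axons, was at 8.51, 8.64, 8.48, 8.57 and 8.64 in wild type and at 8.63, 8.11, 8.20, 8.27 and 8.43 in mutants. Mutant arrays 2 to 5 lay below every wild-type array and mutant array 1 lay within the wild-type range, the opposite of its place for Kif5c and Kif21a. The difference was -0.24 (SE 0.09, limma adjusted p = 0.342). Both means lay below the background limit of 8.57, at 8.568 in wild type and 8.33 in mutants. Without mutant array 1 the difference was -0.32 (SE 0.07, limma adjusted p = 0.0543), and with limma's array weights it passed at -0.34 (adjusted p = 0.0166).

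Kif1b, a carrier of mitochondria and of synaptic vesicle precursors and the close relative of Kif1a, was at 9.51, 9.62, 9.68, 9.63 and 9.66 in wild type and at 9.44, 9.49, 9.44, 9.52 and 9.39 in mutants. The genotypes overlapped only between wild-type array 1 and mutant array 4. Its difference of -0.16 (SE 0.06, limma adjusted p = 0.341) lay between -0.19 and -0.15 when any 1 array was left out, the narrowest such range of these 4 genes.

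**Figure D2:**
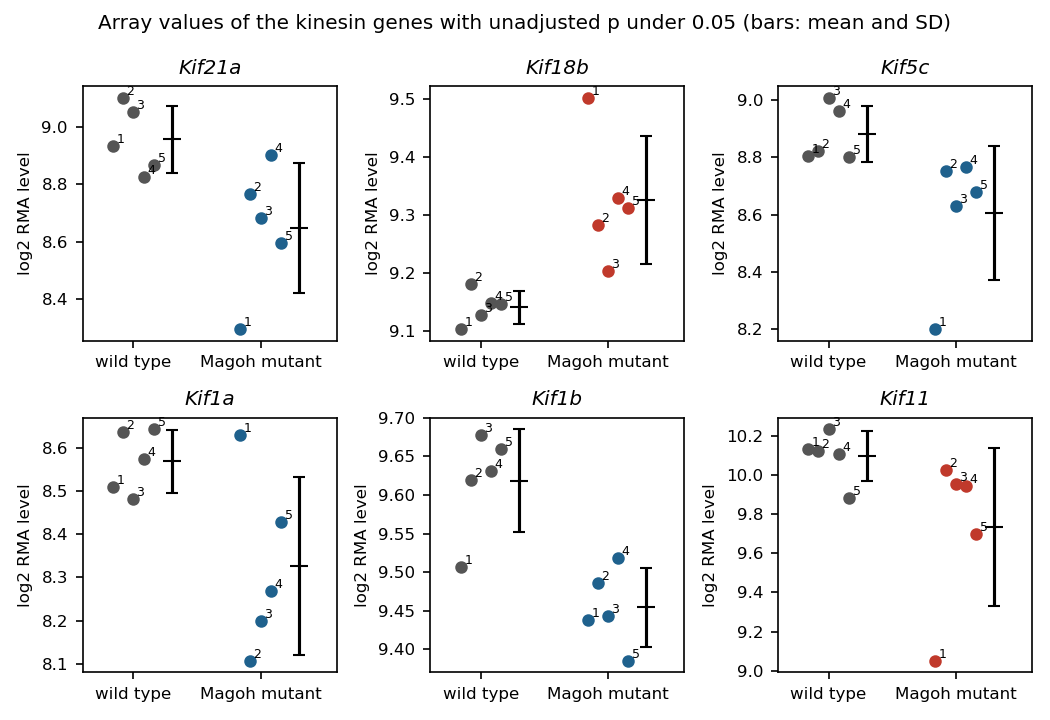
Log2 level (vertical axis) of the 6 kinesin genes with an unadjusted p under 0.05 on each wild-type (grey) and mutant (coloured) array, with array numbers beside the points and the mean and SD of each genotype as bars. Each panel has its own axis, which does not start at 0, and mutant array 1 is the lowest point for Kif21a, Kif5c and Kif11 and the highest mutant point for Kif18b and Kif1a.

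None of the other transport members had an unadjusted p under 0.05, which does not show that they were unchanged. Kif5b, the conventional kinesin heavy chain found in most cells, was at 9.86 ± 0.10 in wild type and 9.66 ± 0.47 in mutants, with 8.83 on mutant array 1 and 9.68 to 9.93 on the others. Its difference was -0.21 (SE 0.16, 95% interval from -0.56 to 0.14, limma adjusted p = 0.784) with all arrays and 0.00 without mutant array 1. Kif5a, the other neuronal heavy chain, differed by -0.07 (SE 0.11) at a level of 6.87 ± 0.09 in wild type, below the background limit.
Of the kinesin-2 motors, Kif3a and Kif3b pair with each other to carry cargo along cilia and axons, while Kif3c is found mainly in neurons. Kif3a differed by -0.12 (SE 0.10) and Kif3b by 0.06 (SE 0.06), both below 8.57 in both genotypes, and their 95% intervals ran from -0.34 to 0.10 and from -0.07 to 0.18. Kif3c was at 8.64 ± 0.17 in wild type and 8.79 ± 0.17 in mutants, a difference of 0.15 (SE 0.09, limma adjusted p = 0.693) of opposite sign to those of Kif1a, Kif5c and Kif21a. A second probe set of Kif3c gave 0.02. The median difference of the 9 transport members was -0.16, with 2 positive and 7 negative, beside a median of 0.00 over all genes. It was -0.04 without mutant array 1, with 2 positive and 7 negative again.

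Among mitotic kinesins, 2 of the 11 members had an unadjusted p under 0.05, Kif18b higher and Kif11 lower in mutants, and none passed the adjusted test. Kif18b, a motor that controls the length of astral microtubules in mitosis, was at 9.10, 9.18, 9.13, 9.15 and 9.15 in wild type and at 9.50, 9.28, 9.20, 9.33 and 9.31 in mutants. All 5 mutant arrays lay above all wild-type arrays, with the highest value on mutant array 1. The difference was 0.18 (SE 0.06, limma adjusted p = 0.315) and 0.14 without that array. A second, dimmer probe set of Kif18b gave -0.02, so the probe sets of this gene disagree.

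Kif11 (Eg5), which pushes the spindle poles apart, was at 10.14, 10.12, 10.24, 10.11 and 9.89 in wild type and at 9.05, 10.03, 9.95, 9.95 and 9.70 in mutants. Mutant array 1 lay at -1.05 from the wild-type mean, and only it and mutant array 5 lay below every wild-type array. The difference was -0.36 (SE 0.15, limma adjusted p = 0.423), or 0.778 of the wild-type level, and it was -0.19 without mutant array 1. Kif15, which can stand in for Kif11 in keeping the spindle bipolar, was at 10.16 ± 0.07 in wild type. On mutant arrays 2 to 4 it lay between 10.24 and 10.35, above every wild-type array, and on mutant arrays 1 and 5 it was at 9.44 and 9.95, below every wild-type array. Its difference was -0.12 with all arrays and 0.03 without mutant array 1.

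Other mitotic members act on chromosomes and on the ends of microtubules. Kif2c (MCAK), which takes microtubules apart at kinetochores, was at 10.43 ± 0.06 and 10.48 ± 0.18, with mutant arrays 2 to 5 between 10.53 and 10.58, above every wild-type array, and mutant array 1 at 10.16, below all of them. Its difference was 0.05 (SE 0.08), and 0.13 (SE 0.06, limma adjusted p = 0.396) without mutant array 1. Kif18a, which dampens chromosome movements at the metaphase plate, differed by -0.06 (SE 0.13) below the background limit. The chromosome-bound motors Kif4 and Kif22 differed by -0.16 (SE 0.10) and -0.05 (SE 0.08). The mutant arrays of Kif4 were split. Its wild-type arrays lay between 9.13 and 9.19, mutant arrays 2 to 4 between 9.19 and 9.21, and mutant arrays 1 and 5 at 8.61 and 8.80.

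Of the motors of cytokinesis, Kif23 is part of centralspindlin, Kif20a brings the chromosomal passenger complex to the midzone, Kif14 works with citron kinase, and Kif20b acts at the midbody and is needed for normal brain size in mice. Kif20b showed the widest spread of all members, at 8.57, 8.63, 8.77, 8.63 and 8.56 in wild type and 7.50, 9.01, 8.89, 8.93 and 8.59 in mutants. Mutant arrays 2 to 4 lay above every wild-type array and mutant array 1 lay at -1.13 from the wild-type mean. The difference was -0.04 (SE 0.21, 95% interval from -0.49 to 0.40) with all arrays and 0.23 (SE 0.08, limma adjusted p = 0.262) without mutant array 1. Kif20a differed by 0.08 (SE 0.06), with 4 of 5 mutant arrays above every wild-type array. Kif23 differed by -0.05 (SE 0.08) and Kif14 by -0.14 (SE 0.08), the last below 8.57, with a second probe set at -0.06.

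**Figure D3:**
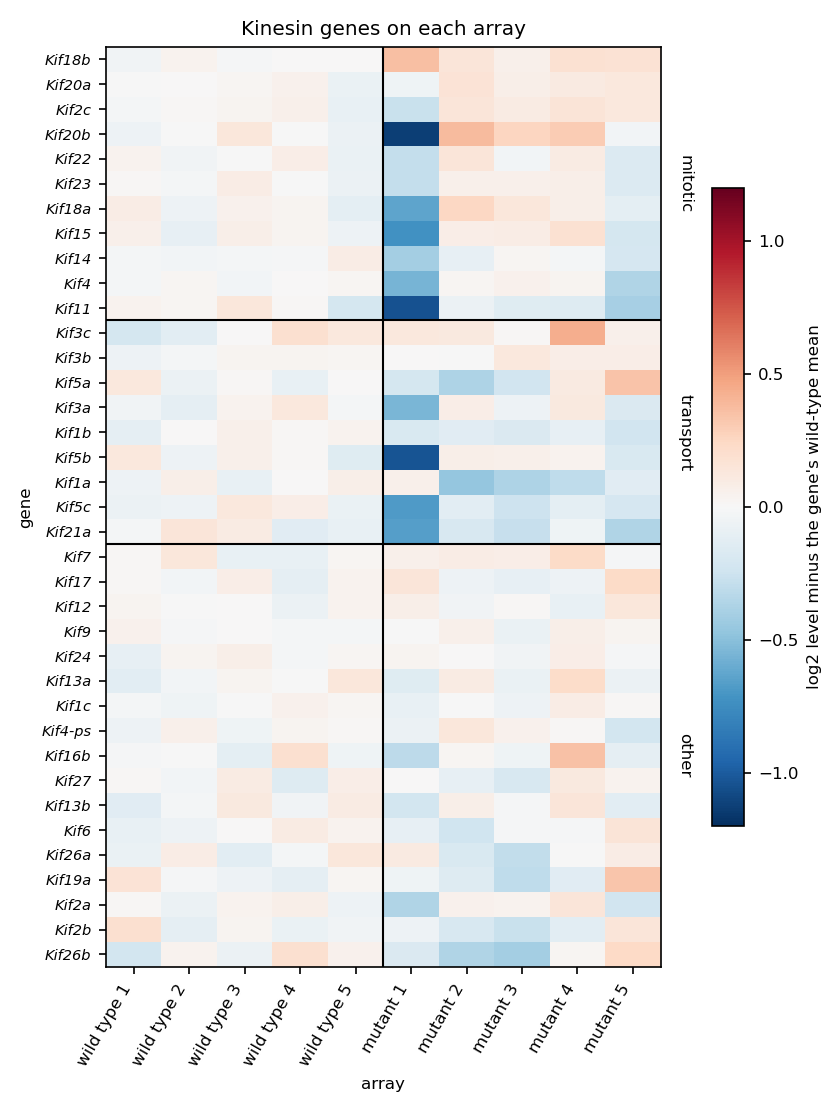
Log2 level of each kinesin gene (rows, grouped as mitotic, transport and other) on each array (columns), shown as the distance from that gene's wild-type mean, with red above and blue below it. The column of mutant array 1 is darkest, with Kif20b at -1.13, Kif11 at -1.05 and Kif5b at -1.04, while mutant arrays 2 to 4 are pale red for most mitotic genes and blue for Kif1a.

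The sign of the mitotic group depended on mutant array 1. It was the lowest of the 10 arrays for 9 of the 11 mitotic members and 4 of the 9 transport members, beside 18.3% of all genes. The median difference of the mitotic members was -0.05 with all arrays (3 positive and 8 negative) and 0.03 without mutant array 1 (8 positive and 3 negative), and the signs of Kif15, Kif18a, Kif20b, Kif22 and Kif23 turned. The other members had a median of -0.02 with all arrays and 0.00 without it.

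**Figure D4:**
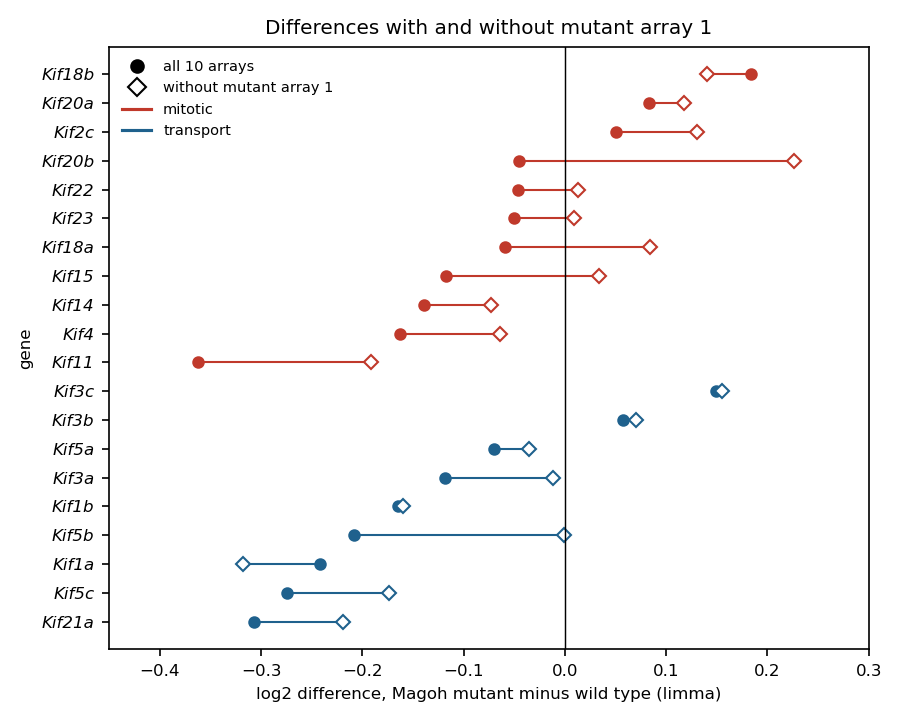
Log2 difference (mutant minus wild type, horizontal axis) of each mitotic (red) and transport (blue) kinesin gene from limma with all 10 arrays (filled circles) and without mutant array 1 (open diamonds). All mitotic genes except Kif18b move to the right, Kif20b furthest from -0.04 to 0.23, and so do all transport genes except Kif1a. Kif18b moves to the left from 0.18 to 0.14 and Kif1a from -0.24 to -0.32.

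The mitotic and transport groups were then set side by side within each array, as the mean distance of their members from the wild-type means. The mitotic mean was 0.01, -0.01, 0.04, 0.02 and -0.06 on wild-type arrays 1 to 5 and -0.46, 0.11, 0.06, 0.09 and -0.11 on mutant arrays 1 to 5. The transport mean was -0.03, -0.03, 0.04, 0.03 and -0.01 in wild type and -0.35, -0.11, -0.13, 0.02 and -0.09 in mutants. Both groups were lowest on mutant array 1. Mitotic minus transport was between -0.05 and 0.04 in wild type and was -0.11, 0.22, 0.19, 0.07 and -0.02 on mutant arrays 1 to 5. It was thus above every wild-type array on mutant arrays 2 to 4, below every wild-type array on mutant array 1 and within their range on mutant array 5, with a mean of 0.07 over the mutants and 0.12 without mutant array 1. No test is given for these group means, since the members were chosen with earlier results known.

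**Figure D5:**
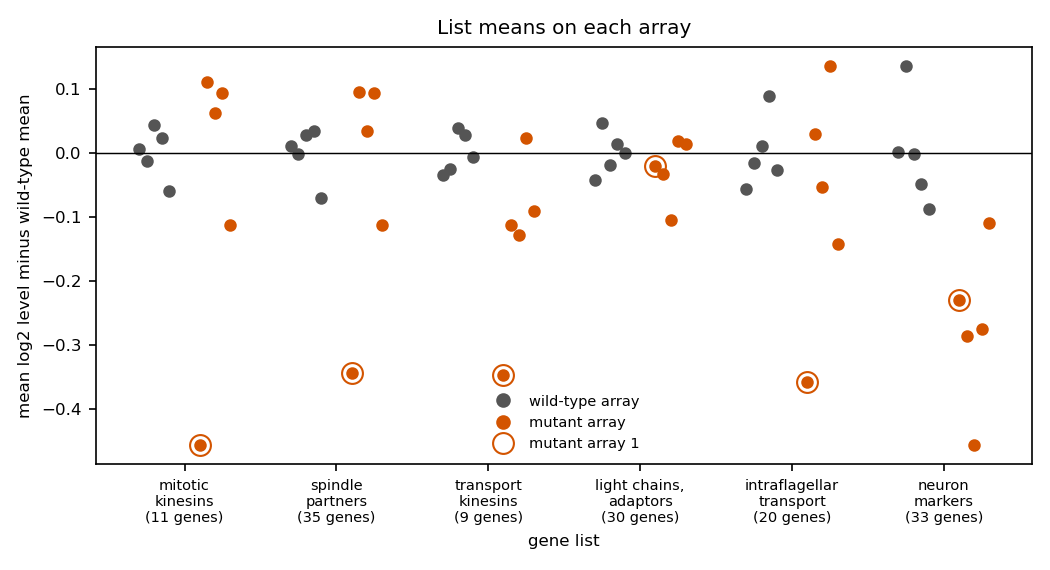
Mean log2 level of each gene list relative to its wild-type mean (vertical axis) on each wild-type (grey) and mutant (orange) array, with mutant array 1 ringed. The neuron markers lie below every wild-type array on all 5 mutant arrays, whereas the mitotic kinesins and the spindle partners are spread above and below the wild-type arrays with mutant array 1 lowest.

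Genes listed as partners of the mitotic kinesins were also lowest as a list on mutant array 1. The list was drawn up with the motor genes Cenpe and Kifc1, which the rule leaves out. Of 35 measured partners in the spindle and in cytokinesis, 0 were called in limma in either direction, with a median of -0.03. At an unadjusted p under 0.05 there were 4, of which 1 was higher. Over all genes 0.573% were called and 9.25% had an unadjusted p under 0.05. Their list mean was -0.34 on mutant array 1 and -0.11 on mutant array 5, against 0.03 to 0.09 on mutant arrays 2 to 4 and -0.07 to 0.03 in wild type. The members with the smallest p were Top2a, the topoisomerase of mitotic chromosomes (-0.34), the spindle protein gene Ckap2 (0.23), Racgap1, the partner of Kif23 in centralspindlin (-0.14), and the kinetochore gene Kntc1 (-0.19), with limma adjusted p between 0.343 and 0.486. The proliferation marker Mki67 differed by -0.08 (SE 0.08, limma adjusted p = 0.833) and by -0.01 without mutant array 1.

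The 30 genes listed as light chains and cargo adaptors of transport kinesins include the motor genes Kifc2 and Kifc3, which the rule leaves out. Of the 30, 1 fell, 0 rose and 29 missed the threshold, where 0.314% of all genes fell and 0.26% rose. Their median was -0.01, and their list means lay within the wild-type range on 4 of 5 mutant arrays. The one that fell was Fez1, an adaptor that links kinesin-1 to axonal cargo. Fez1 was at 8.81 ± 0.06 in wild type and 8.29 ± 0.11 in mutants, a difference of -0.52 (SE 0.07, limma adjusted p = 0.00112), with the mutant level below 8.57, and it was called with any 1 array left out. Kifap3, the subunit that binds Kif3a and Kif3b to cargo, differed by -0.31 (SE 0.09, limma adjusted p = 0.204) and by -0.23 without mutant array 1. Its mutant level also lay below 8.57. The light chain gene Klc1 differed by -0.22 (SE 0.08, limma adjusted p = 0.312). The Kif5 adaptor gene Grip1, below 8.57 in both genotypes, differed by 0.19 (SE 0.07, limma adjusted p = 0.321). Of 20 subunits of intraflagellar transport, the cargo trains that kinesin-2 moves in cilia, 0 passed in limma. Ift27 alone had an unadjusted p under 0.05 (-0.20, with the mutant level below 8.57), where 9.25% of all genes did. The list mean of the 20 subunits was -0.36 on mutant array 1, against -0.14 to 0.14 on the other mutant arrays.

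Neuron markers were examined because several transport kinesins are most abundant in neurons. Of 33 measured, 9 fell, 0 rose and 24 missed the threshold, with a median of -0.26, where 0.314% of all genes fell and 0.26% rose. The count of those that fell was 5 without any 1 wild-type array or mutant array 2, 3 or 4, and 8 and 10 without mutant arrays 1 and 5. In log2 units, the neuronal tubulin gene Tubb3 fell by 0.61 and the dendrite protein gene Map2 fell by 0.53 (limma adjusted p = 0.00146 and 0.00226). The glutamate transporter gene Slc17a6 fell by 0.97 and the RNA-binding protein gene Elavl4 fell by 0.52 (limma adjusted p = 0.00399 and 0.00804), both from levels below 8.57. Dcx, of migrating neurons and also below 8.57 in both genotypes, fell by 0.73 (limma adjusted p = 0.0438), a call lost without 8 of the 10 arrays. The summed linear level of the list was 8620 to 10000 on wild-type arrays and 6460 to 8040 on mutant arrays, with 25 of its 33 members below 8.57 on all arrays. In bulk tissue, fewer neurons and less RNA per neuron cannot be told apart. The neuron list mean was -0.23 on mutant array 1 and between -0.46 and -0.11 on the other mutant arrays. The part of the neuron markers in the transport kinesin values was not tested.

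Markers of cortical progenitors, which make up most of this tissue, and of other cells in the dissection gave 0 calls in limma with all arrays. At an unadjusted p under 0.05, 4.57% of all genes were higher and 4.68% lower. Of 16 measured red cell markers 11 were higher at that threshold (median 0.25), and of 15 endothelial markers 3 were higher (median 0.12). Of 14 macrophage markers, all below 8.57 on every array, 5 were lower (median -0.12), and of 14 mesenchyme markers 3 were lower (median -0.09). Of 17 cortical progenitor markers, 5 were lower (median -0.11), with 2 (without mutant array 3) to 9 (without mutant array 1) when 1 array was left out. Calls appeared in some of the other fits. Without mutant array 1, 4 red cell markers rose, without mutant array 5, 2 progenitor markers fell, and without mutant array 4, 1 mesenchyme marker fell. With array weights 5 red cell markers rose, and 3 progenitor markers and 1 mesenchyme marker fell. With genes of a mean level under 7 left out, 1 progenitor marker fell. Without both mutant arrays 1 and 5, a fit added after seeing the data, 3 red cell markers rose and 1 macrophage marker fell. Of the progenitor markers, 6 fell and 1 rose in that fit. Of all 20405 genes, 185, 151 and 92 were called without mutant arrays 1, 5 and 4, respectively. With array weights 408 were called, without both mutant arrays 1 and 5 there were 502, and without the dim genes 144 of 10824. The summed level was 25700 to 33400 in wild type and 29100 to 35800 in mutants for red cell markers, and 17300 to 19000 and 15400 to 17300 for progenitor markers. It was 3230 to 3810 and 3650 to 4080 for endothelial, 1180 to 1320 and 1060 to 1200 for macrophage, and 7560 to 8770 and 6630 to 8140 for mesenchyme markers. Their part in the kinesin values was not tested.

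The 17 other members lay between -0.14 (Kif26b) and 0.09 (Kif7), with 0 calls and 0 at an unadjusted p under 0.05, and 16 of them were below the background limit in a genotype. Kif7, which holds the Hedgehog signal in check at the tip of the cilium, differed by 0.09 (SE 0.07), but its other probe sets gave 0.01 and -0.10. Kif2a, a microtubule depolymerase whose human gene is mutated in malformations of the cortex, differed by -0.07 (SE 0.09) and by 0.00 without mutant array 1, and it was the one of these genes above 8.57 in both genotypes. On chromosome 4, which carries Magoh, lie 5 members (Kif1b, Kif2c, Kif12, Kif17 and Kif24), with differences from -0.16 to 0.05. A probe set titled for Kif21b, the sister of Kif21a, carries the Entrez number of Rpl18 in the deposited table and so falls outside the rule. Tested over all probe sets, it differed by -0.06 (SE 0.07, limma adjusted p = 0.879). The symbols Kif16bos, Kif22-ps and Kif28 were not analysed here.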

How the data were processed

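Gene expression was measured on Affymetrix GeneChip 1.0 ST arrays from 300 ng of total RNA per array. The authors deposited 1 column of log2 expression per array, and the submitters' processing notes name Affymetrix Expression Console and RMA, without versions. As a method, RMA subtracts background, brings arrays to 1 distribution and summarises the probes of a set, which tends to compress fold changes. Deposited annotation text (other columns: accession, Entrez number, title) named the probe sets through the gene table of GRCm38.p6, with 23322 matched by Entrez number and 465 by accession. The second deposited table also holds 10 columns of values whose names match no label, and these were not used. Precision is limited by the number of arrays.

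Mutant minus wild type was fitted with limma 3.58.1 in R 4.3.3 on all 10 arrays. Benjamini-Hochberg adjustment was over 20405 genes, with genes called at an adjusted p under 0.05. The fit was also run on simulated data, with noise independent between genes and of equal spread on all arrays. That run could not test the effect of an array that stands apart. Group means and promoter motifs are descriptions. The members and lists were chosen with earlier results of these data known. Array values are given for members with an unadjusted p under 0.05, and up to 4 genes of a list by smallest p. Magoh, Tubb3, Dcx and Mki67 are named whatever their values, and another gene under that rule is not reported here. Kif15, Kif4, Kif2c, Kif5b and Kif20b were chosen for array values after these were seen. Alternatives were quantile normalization, median centring, limits on dim genes, mean over probe sets, trend and robust variance, array weights, a replicate block, an adjusted p under 0.1, testing every probe set, and leaving out each array. A fit without both mutant arrays 1 and 5 was added after seeing the data.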

Additional observations from a re-analysis of the deposited data

Results flagged for a closer look

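Each of the 37 genes and the list means was examined in both genotypes for an array far from the other 4 of its group, by the gap to the nearest array as a share of the group's range. Of 102 groups of arrays, 6 were set apart, where chance sets apart about 1 in 20. Mutant array 1 was the one set apart in 4 of them, always as the lowest. For Kif2c it was at 10.16, with a gap of 0.883 of the range, for Kif5b at 8.83 (0.777), for Kif5c at 8.20 (0.758) and for Kif20b at 7.50 (0.725). Mutant array 4 was the highest for Kif3c at 9.08, with a gap of 0.734 of the range. Wild-type array 5 was the highest for Kif14 at 8.51, with a gap of 0.833 of the range.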

How the results depend on the processing

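The count of kinesins called was 0 under every alternative listed except array weights, where it was 1 (Kif1a). In the fit added after seeing the data, without mutant arrays 1 and 5 together, the count was 2. These were Kif1a at -0.38 (limma adjusted p = 0.00872) and Kif20b at 0.31 (limma adjusted p = 0.0237). Under array weights and without those 2 arrays, respectively, all genes called were 408 and 502 (2% and 2.46%) where the fit of all arrays called 117, the mitotic median was 0.047 and 0.115, mitotic minus transport was 0.142 and 0.162, spindle partners called were 1 and 1, and neuron markers called were 14 and 14. At an unadjusted p under 0.05, 11 kinesins were found without those 2 arrays, beside 1662 higher and 1920 lower genes of all 20405. With any 1 array left out, all genes called were 64 (without wild-type array 2, with 66 and 71 without wild-type arrays 1 and 3) to 185 (without mutant array 1), the mitotic median -0.137 to 0.034, the transport median -0.180 to -0.036, mitotic minus transport 0.032 to 0.116, kinesins called 0 to 0, and neuron markers called 5 to 10, with 5 without any 1 wild-type array or mutant array 2, 3 or 4.

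The sign of the difference turned with at least 1 single array left out in 5 of 11 mitotic, 1 of 9 transport and 12 of 17 other members, and without mutant array 1 in 5, 0 and 4 of them. For genes described with values it turned as follows. Without mutant array 1 the highest values were 0.034 for Kif15, 0.084 for Kif18a, 0.227 for Kif20b, 0.0129 for Kif22, 0.0086 for Kif23 and 0.0008 for Kif2a, with lowest values over single arrays left out of -0.193, -0.137, -0.151, -0.094, -0.080 and -0.125. Array weights gave 0.0294, 0.101, 0.193, 0.0468, 0.0154 and 0.0194 for the same genes, and leaving out mutant arrays 1 and 5 gave 0.116, 0.152, 0.314, 0.0718, 0.0658 and 0.0776, with 0.0429 for Kif3a, 0.0353 for Kif4, 0.0589 for Kif5b and 0.0364 for Mki67. Kif5a lay between -0.173 and 0.0045, the last without mutant array 2. The mean over probe sets gave -0.0006 for Kif7. The cause was not tested.

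Same-numbered arrays of the genotypes did not deviate together in every pair, so the numbers were not taken to pair them (correlations from -0.07 to 0.36, with 1 of 5 pairs closest by number). With the replicate block 0 kinesins, 83 genes and 5 neuron markers were called.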
